A study of Mus musculus with 6 samples.

Results

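Interleukin-33 (Il33) and the chains of its receptor, Il1rl1 (ST2) and Il1rap, were described in p53-deleted mouse embryonic fibroblasts (MEFs) that carried a hairpin against ARF or a control hairpin. The 3 genes, of 54752 rows in 1 deposited count table, were chosen by their measured levels in the comparison given here, in which Il33 was higher and Il1rl1 lower in the ARF knockdown. Those levels are therefore given as a description, without a test. MEFs are fibroblasts grown out of dissected embryos. The 3 shARF libraries came from cells infected with a lentivirus carrying a p19ARF hairpin, and their genotype is labelled as ARF knockdown. The 3 shNT libraries came from cells infected with a negative control hairpin, and their genotype is labelled as WT, although the cell line of all 6 is given as p53-deleted. All titles also carry the tag neo. The labels call the libraries biological replicates without naming separate cultures or infections, so each p-value below covers only the spread among these 6 libraries, and that spread may be technical.

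Interleukin-33 is a member of the IL-1 cytokine family that is stored in the nucleus of stromal, endothelial and epithelial cells and released when cells are damaged. Outside the cell it binds ST2, the product of Il1rl1, which then recruits the IL-1 receptor accessory protein, the product of Il1rap. The joined receptor signals through MyD88 and IRAK kinases to NF-kB and MAP kinases, mainly in mast cells, group 2 innate lymphoid cells and regulatory T cells. Il1rl1 is also known as a gene of growth-stimulated fibroblasts, which make a secreted form of ST2 that captures the ligand. Il1rap is shared with the receptors for IL-1 and IL-36.

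Il33 (ENSMUSG00000024810.16) lies on GRCm38 chromosome 19 at 29925114 to 29960718 on the plus strand and has 5 annotated transcripts. Il1rl1 (ENSMUSG00000026069.15) lies on chromosome 1 at 40429570 to 40465415, also on the plus strand, and has 5 annotated transcripts. The table holds 1 count per gene, so the membrane and secreted forms of ST2 could not be told apart, nor could transcripts from different start sites. RefSeq places 2 start sites in Il33 and 2 in Il1rl1. The sequences around them are shown because they are the annotated starting points of the ligand and receptor transcripts counted here. Each run holds 250 bases before the start site and 50 from it onward, on build GRCm38.p6 and the plus strand. A single capital marks the start base, and runs of capitals mark matches to a GATA motif.
Il33, upstream start site, chr19:29924863-29925162: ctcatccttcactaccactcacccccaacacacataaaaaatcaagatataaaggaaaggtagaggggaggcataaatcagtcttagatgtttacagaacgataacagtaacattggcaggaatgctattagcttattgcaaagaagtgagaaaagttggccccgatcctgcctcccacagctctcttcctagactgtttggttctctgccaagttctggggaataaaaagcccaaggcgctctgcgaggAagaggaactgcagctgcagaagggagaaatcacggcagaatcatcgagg
Il33, downstream start site, chr19:29945540-29945839: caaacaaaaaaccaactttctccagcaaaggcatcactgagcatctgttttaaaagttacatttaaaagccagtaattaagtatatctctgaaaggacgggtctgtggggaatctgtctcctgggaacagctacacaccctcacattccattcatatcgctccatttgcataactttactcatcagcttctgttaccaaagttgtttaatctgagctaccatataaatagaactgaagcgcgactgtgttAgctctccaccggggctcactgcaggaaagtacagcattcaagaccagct
Il1rl1, upstream start site, chr1:40429320-40429619: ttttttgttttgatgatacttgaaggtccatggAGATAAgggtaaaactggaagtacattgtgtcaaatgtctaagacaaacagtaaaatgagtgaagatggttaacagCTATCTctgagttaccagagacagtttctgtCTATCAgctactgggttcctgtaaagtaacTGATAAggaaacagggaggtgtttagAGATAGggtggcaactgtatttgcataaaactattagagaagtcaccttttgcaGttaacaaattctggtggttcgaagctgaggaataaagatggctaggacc
Il1rl1, downstream start site, chr1:40439379-40439678: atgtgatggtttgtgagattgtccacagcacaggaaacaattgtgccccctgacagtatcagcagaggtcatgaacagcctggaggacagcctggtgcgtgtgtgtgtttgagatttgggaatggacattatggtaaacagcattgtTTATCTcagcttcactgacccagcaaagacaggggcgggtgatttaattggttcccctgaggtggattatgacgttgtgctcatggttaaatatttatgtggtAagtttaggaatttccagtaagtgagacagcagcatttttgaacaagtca

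The GATA motif was searched on both strands, as GATA with A or T before it and A or G after it. The upstream Il1rl1 window held 5 matches and the downstream window 1, while neither Il33 window held any. At least 1 match was found in 29.8% of 32851 annotated promoter windows of the same length, and 5 or more in 0.0548% of them. The cutoff of 5 was the number found in the upstream Il1rl1 window, so that share tests nothing. The upstream start site of Il1rl1 is known from mast cells and other blood cells, where GATA factors act, and the downstream start site from fibroblasts. No window of Il33, Il1rl1 or Il1rap held the AP-1 motif TGANTCA (7.81% of windows) or the kappaB motif GGGRNNYYCC (8.46%). None held the CArG box of serum response factor, CCWWWWWWGG (1.63%). These were also searched on both strands, and only exact matches were counted. In the patterns R is A or G, Y is C or T, W is A or T and N is any base. The stretch aggaatttcc in the downstream Il1rl1 window departs from the kappaB pattern at its first base only. A match or its absence describes the letters in these windows only.

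Total counts were 45226639 to 46305826 in shARF libraries and 40261944 to 47023082 in shNT libraries. Levels are given as CPM, counts scaled to a common library size by the TMM method, so that 1 CPM stands for 43.8 to 44.8 counts in a shARF library and 41.2 to 48.7 counts in a shNT library. The hairpin's target, Cdkn2a, was at 95.6, 103 and 107 CPM in shARF libraries and at 231, 218 and 223 CPM in shNT libraries (log2 fold change -1.14, SE 0.05; edgeR, adjusted p = 2.52e-06). Its 2 products, p19ARF and p16INK4a, were counted as 1 gene. The groups also differed in Xist, the RNA of the inactive X chromosome, which was at 40.7 to 54.3 CPM in shARF and 360 to 413 CPM in shNT. Its part in the results below was not tested.

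The ligand was well expressed in shARF and at a low level in shNT. Il33 had 76.1, 75.0 and 83.1 CPM in the shARF libraries, against 2.56, 2.30 and 2.96 CPM in the shNT libraries. These stand for 3289 to 3715 counts per shARF library and 112 to 122 counts per shNT library. All 3 shARF libraries lay above all 3 shNT libraries, and the lowest shARF value was far above the highest shNT value. The means were 78.1 ± 4.39 CPM in shARF and 2.61 ± 0.334 CPM in shNT (SD, n = 3 each), a 30.0-fold difference (log2 fold change 4.91, SE 0.10). Among 17128 genes tested, 116 had a larger log2 fold change.

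**Figure D1:**
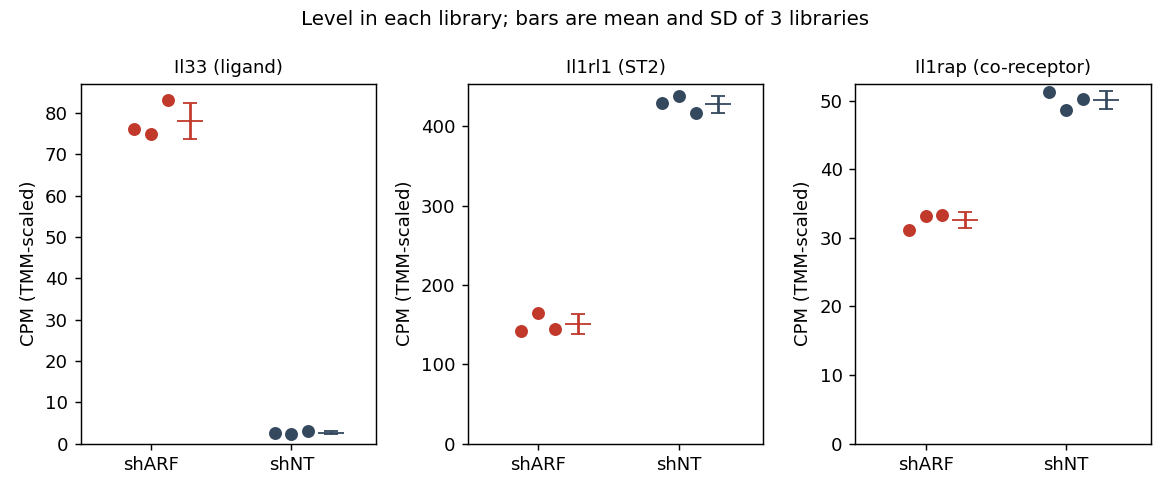
CPM of Il33, Il1rl1 and Il1rap (vertical axes, TMM-scaled, each starting at 0) in 3 shARF and 3 shNT libraries, 1 point per library, with the mean and SD beside the points. Il33 sits at 75.0 to 83.1 CPM in shARF and 2.30 to 2.96 CPM in shNT, while both receptor chains are lower in shARF.

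The ligand-binding chain differed the other way. Il1rl1 had 142, 165 and 145 CPM in the shARF libraries, against 429, 438 and 417 CPM in the shNT libraries. The groups did not overlap, and shARF replicate 2 was the highest of its group. The means were 151 ± 12.4 CPM in shARF and 428 ± 10.7 CPM in shNT (SD, n = 3 each), so that shARF held 35.2% of the shNT level (log2 fold change -1.51, SE 0.06). Il1rl1 remained abundant in shARF, with 6371 to 7230 counts per library. Among the 17128 genes tested, 813 had a lower log2 fold change.

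The accessory chain was lower by less. Il1rap (ENSMUSG00000022514.14; chromosome 16, 26581704 to 26730117, plus strand) had 31.2, 33.2 and 33.4 CPM in the shARF libraries, against 51.3, 48.6 and 50.2 CPM in the shNT libraries. The groups did not overlap. The means were 32.6 ± 1.23 CPM in shARF and 50.1 ± 1.37 CPM in shNT (SD, n = 3 each), so that shARF held 65.1% of the shNT level (log2 fold change -0.62, SE 0.05). Groups that do not overlap were common in these data: CPM of the groups were apart for 64.6% of the 17128 genes tested, with shARF above shNT for 32.6% and below it for 32.0%. In bulk RNA, fewer cells expressing a gene and less RNA per cell cannot be told apart.

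Levels of different genes can be compared per kilobase of exon. Per kb of merged exon, Il33 was at 26.4, 26.0 and 28.8 CPM in shARF and at 0.888, 0.797 and 1.03 CPM in shNT. Il1rl1 was at 20.6, 23.9 and 21.0 CPM per kb in shARF and at 62.3, 63.6 and 60.5 CPM per kb in shNT. Il33 per Il1rl1 was 1.28, 1.09 and 1.37 in the shARF libraries, whereas in shNT the receptor transcript exceeded the ligand 70.1-, 79.8- and 58.9-fold. With the length of the longest transcript in place of merged exons the shARF ratios were 1.12, 0.948 and 1.19, so which of the pair is higher in shARF replicate 2 depends on the length used.

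Il1rap was the lowest of the 3 genes per kb in shARF, at 2.74, 2.92 and 2.94 CPM per kb, against 4.52, 4.28 and 4.42 CPM per kb in shNT, where it lay above Il33. Il1rl1 exceeded Il1rap per kb 7.51-, 8.19- and 7.15-fold in shARF, against 13.8-, 14.9- and 13.7-fold in shNT. These ratios rest on the long merged exons of Il1rap. With longest transcripts they were 3.89, 4.24 and 3.70 in shARF and 7.13, 7.69 and 7.08 in shNT. Ranked by mean level per kb, Il33 lay above 87.2% of tested genes in shARF and above 26.4% in shNT. Il1rl1 lay above 83.8% in shARF and 95.6% in shNT, and Il1rap above 42.7% in shARF and 50.7% in shNT.

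Of the other IL-1 family ligands, Il1rn, the IL-1 receptor antagonist, fell. It had 6.94, 7.30 and 7.14 CPM in shARF libraries, against 15.8, 13.1 and 12.6 CPM in shNT libraries (log2 fold change -0.95, SE 0.10; edgeR, adjusted p = 1.86e-04). The groups did not overlap. Il18, whose product is activated by caspase-1, was at 6.72 ± 0.806 CPM in shARF and 6.34 ± 0.266 CPM in shNT (SD, n = 3 each) and did not pass the test (edgeR, adjusted p = 0.504). The other 7 of the 9 ligand genes (Il1a, Il1b, Il36a, Il36b, Il36g, Il36rn and Il1f10) had no count in any library, which allows 0.0669 to 0.0684 CPM in a shARF library and 0.0616 to 0.0729 CPM in a shNT library. Per kb of merged exon, mean levels in shARF were 27.1 CPM for Il33, 6.52 CPM for Il18 and 1.29 CPM for Il1rn, while in shNT they were 0.904 CPM for Il33, 6.15 CPM for Il18 and 2.49 CPM for Il1rn. Il33 thus stood above both in shARF and below both in shNT. In all, 1 of 2 ligands tested was lower and 0 higher, in a comparison in which 56.4% of genes were called (28.8% higher and 27.7% lower in shARF). Over all 17128 genes that split was 4930 higher and 4737 lower, and with library sizes alone as the scaling it was 4023 higher and 5874 lower.

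Among 9 other receptor and decoy genes of the family, 6 were tested. Of these, 1 was higher and 3 lower, beside 28.8% higher and 27.7% lower over all genes. Their median log2 fold change was -0.19, against -0.01 over all genes tested. Il1rl2, the IL-36 receptor, rose, with 9.33, 9.74 and 11.1 CPM in shARF libraries and 2.91, 3.61 and 1.87 CPM in shNT libraries (log2 fold change 1.84, SE 0.22; edgeR, adjusted p = 4.00e-04). Il1r1, the signalling receptor for IL-1, fell, with 79.0, 80 and 78.2 CPM in shARF libraries and 104, 106 and 103 CPM in shNT libraries (-0.40, SE 0.03; edgeR, adjusted p = 2.53e-05). Neither pair of groups overlapped, as held for 64.6% of all genes tested. Il1r1, Il1rl2 and Il1rl1 all encode chains that pair with the accessory protein, and in shARF Il1rl2 was higher while Il1r1 and Il1rl1 were lower.

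Il1rapl1, a synaptic relative of the accessory protein encoded on the X chromosome, fell to 0.285 ± 0.112 CPM in shARF, against 2.66 ± 0.306 CPM in shNT (SD, n = 3 each; log2 fold change -3.21; edgeR, adjusted p = 6.33e-05). Il18bp, a secreted trap for IL-18, was at 1.13 ± 0.181 CPM in shARF and 1.75 ± 0.328 CPM in shNT (edgeR, adjusted p = 0.0323). Without shARF replicate 2 or 3, or without shNT replicate 1 or 2, Il18bp did not pass (edgeR, adjusted p = 0.0941, 0.0989, 0.0983 and 0.0777). Il18rap, the accessory chain of the IL-18 receptor, was at 9.95 ± 1.22 CPM in shARF and 9.75 ± 0.506 CPM in shNT (edgeR, adjusted p = 0.826), and Sigirr, an inhibitory member, at 0.307 ± 0.0626 CPM in shARF and 0.221 ± 0.0410 CPM in shNT (edgeR, adjusted p = 0.233). Il18r1 (at most 0.0446 CPM in shARF and 0.326 CPM in shNT) and the decoy Il1r2 (at most 0.0447 CPM in shARF and 0.185 CPM in shNT) were too low to be tested, and Il1rapl2 had no count.

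**Figure D2:**
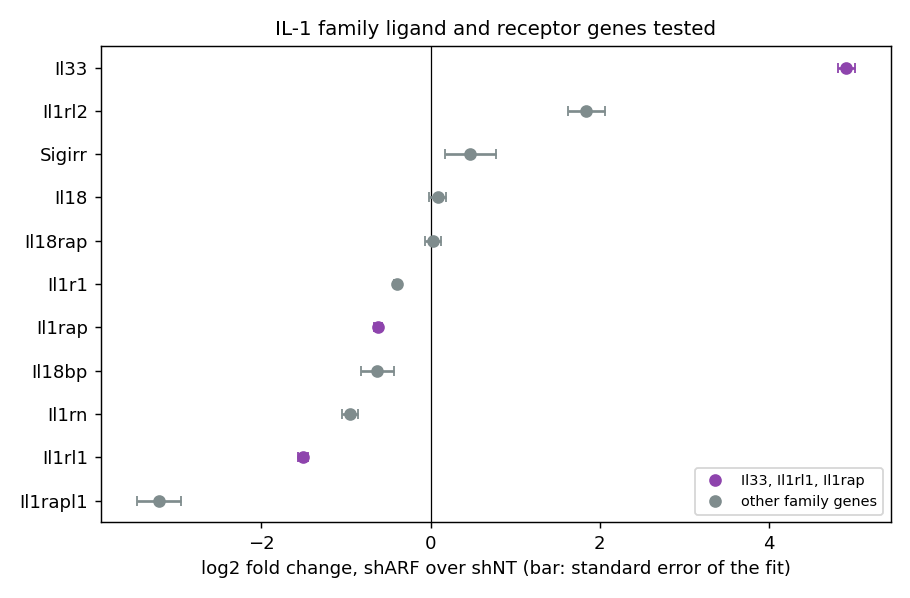
Log2 fold change of shARF over shNT (horizontal axis) with the standard error of the fit, for the 11 IL-1 family ligand and receptor genes tested, ordered from highest to lowest. Il33 stands at 4.91 and Il1rl2 at 1.84, while Il1rl1 stands at -1.51 and Il1rapl1 at -3.21.

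Il1rl1 sits in a cluster of IL-1 receptor genes on chromosome 1, and the genes beside it differed in direction. The nearest tested protein-coding genes before it were Map4k4 (log2 fold change 0.20; edgeR, adjusted p = 3.19e-04), Il1r1 and Il1rl2, the last 62.0 kb away and higher in shARF. The tested genes after it were Il18rap, 49.9 kb away, then Mfsd9 (0.11; edgeR, adjusted p = 0.301) and, 2390 kb away, Mrps9 (-0.14; edgeR, adjusted p = 0.0593). Il18r1, which lies between Il1rl1 and Il18rap, was too low to be tested. Of 7 tested protein-coding genes within 1000 kb of Il1rl1, 2 were higher, 1 was lower and 4 were not called. Around Il33, 6 of 15 genes were higher, 7 lower and 2 not called. Over all genes tested, 28.8% were higher and 27.7% lower. Among the 3 nearest on each side, the highest log2 fold change was 0.43, against 4.91 for Il33. Ranbp6, 112 kb before it, rose (0.42; edgeR, adjusted p = 0.00142), as did Ermp1 (0.43; edgeR, adjusted p = 1.20e-05). Uhrf2, 69.8 kb after it (0.15; edgeR, adjusted p = 0.241), and 9930021J03Rik (-0.23; edgeR, adjusted p = 0.108) did not pass. Gldc, a glycine-cleaving enzyme, fell to 0.150 ± 0.0676 CPM in shARF, against 0.787 ± 0.243 CPM in shNT (SD, n = 3 each; edgeR, adjusted p = 0.00207). Prkg1 was called lower (-0.23; edgeR, adjusted p = 0.0242) but did not pass without shARF replicate 3 (0.0675), shNT replicate 1 (0.0680) or shNT replicate 3 (0.0510).

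Il1rap lay among genes that were lower in shARF. All 6 of its nearest tested protein-coding genes, 3 on each side, were called lower, where 27.7% of all genes tested were. Trp63, a p53 family transcription factor of squamous epithelia, fell to 0.647 ± 0.247 CPM in shARF, against 11.5 ± 1.41 CPM in shNT (SD, n = 3 each; log2 fold change -4.15; edgeR, adjusted p = 1.16e-05). P3h2, a collagen prolyl hydroxylase, fell (-1.46; edgeR, adjusted p = 5.02e-06), as did Cldn1, a tight junction protein 210 kb before Il1rap (-2.27; edgeR, adjusted p = 2.68e-04). On the other side Ccdc50, 659 kb away (-0.73; edgeR, adjusted p = 2.30e-05), and Mb21d2, 2100 kb away (-0.72; edgeR, adjusted p = 1.17e-04), fell, beside -0.62 for Il1rap. Opa1, 2850 kb away, was lower by less (-0.16; edgeR, adjusted p = 0.0170) and did not pass without shARF replicate 3 (0.0627). Within 1000 kb of Il1rap 4 protein-coding genes were tested, and their median log2 fold change was -1.87. An antisense gene that overlaps Il1rap, Gm20319, had no count in any library.

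**Figure D3:**
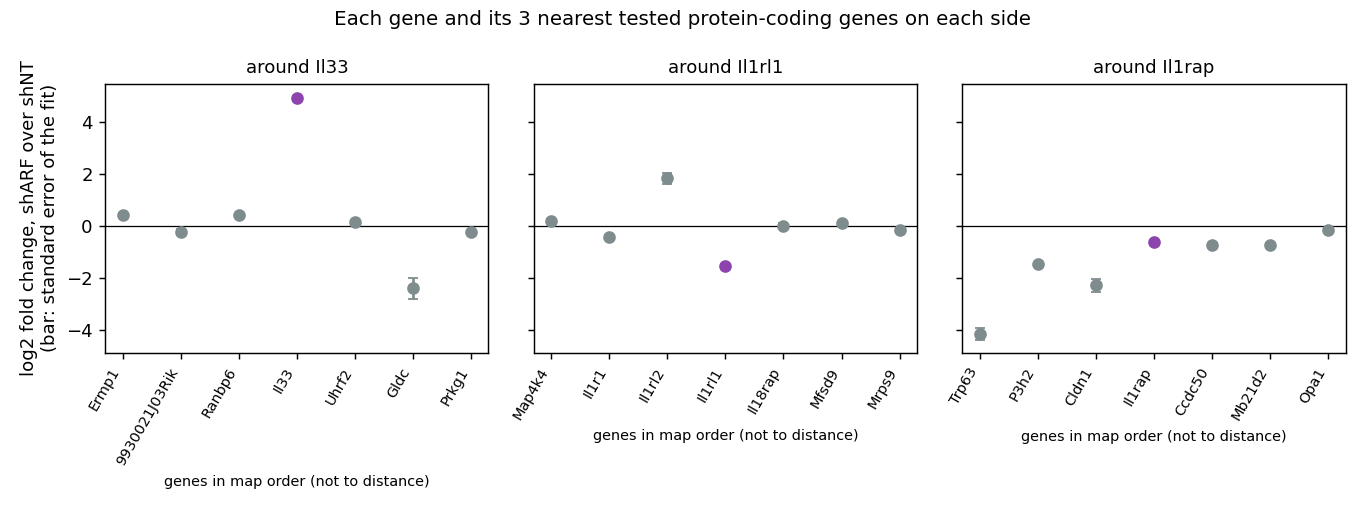
Log2 fold change of shARF over shNT (vertical axis, bars are the standard error of the fit) for Il33, Il1rl1 and Il1rap and the 3 nearest tested protein-coding genes on each side, in map order and not to distance. The points around Il1rap all lie below 0, whereas those around Il33 and Il1rl1 lie on both sides of 0.

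Genes that carry the signal from the receptor were all expressed. Of 22 genes of MyD88 and IRAK signalling, all 22 were tested. Of these, 6 were higher, 6 lower and 10 not called, so that 54.5% were called, near the 56.4% over all genes tested. Their median was 0.01 on the log2 scale, and no called change reached 2-fold. The 3 with the smallest p were Peli2, Peli1 and Tab2. Peli2, a ubiquitin ligase that binds IRAK kinases, fell, with 29.1, 27.0 and 28.7 CPM in shARF libraries and 53.0, 51.2 and 54.0 CPM in shNT libraries (-0.90, SE 0.05; edgeR, adjusted p = 6.70e-06). Its relative Peli1 fell to 18.0 ± 0.351 CPM in shARF, against 29.0 ± 0.444 CPM in shNT (SD, n = 3 each; edgeR, adjusted p = 1.53e-05). Tab2, an adaptor of the kinase TAK1, rose to 146 ± 1.72 CPM in shARF, against 110 ± 4.02 CPM in shNT (SD, n = 3 each; 0.41; edgeR, adjusted p = 5.94e-05). Myd88 itself, named here after its values were seen as the adaptor of the pathway, was at 28.8 ± 1.42 CPM in shARF and 26.2 ± 1.3 CPM in shNT and did not pass (edgeR, adjusted p = 0.0894).

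Genes known as outputs of NF-kB, the pathway that ST2 and other receptors switch on, included several large rises. Of 20 listed, 17 were tested, 9 were higher, 3 lower and 5 not called. Their median was 0.30 on the log2 scale, against -0.01 over all genes, and 4 of those higher changed by at least 2-fold. The shares called in the same data were 28.8% higher and 27.7% lower, and, by at least 2-fold, 6.59% higher and 7.78% lower. Cxcl5, a neutrophil chemokine, rose, with 142, 134 and 131 CPM in shARF libraries and 17.4, 18.2 and 20.0 CPM in shNT libraries (2.87, SE 0.06; edgeR, adjusted p = 2.51e-07). Icam1, an adhesion receptor for leukocytes, rose, with 11.3, 10.9 and 11.9 CPM in shARF libraries and 0.304, 0.267 and 0.656 CPM in shNT libraries (4.82, SE 0.26; edgeR, adjusted p = 8.80e-06). Vcam1, another adhesion receptor, rose to 249 ± 2.77 CPM in shARF, against 160.0 ± 1.82 CPM in shNT (SD, n = 3 each; 0.64; edgeR, adjusted p = 1.16e-06).

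Other outputs, named after their values were seen, rose, fell or did not pass. Zc3h12a (0.83; edgeR, adjusted p = 0.00126), Ptgs2 (0.42; edgeR, adjusted p = 8.55e-04), Lif (0.335; edgeR, adjusted p = 0.00102) and Ccl7 (0.30; edgeR, adjusted p = 0.00128) rose by less than 2-fold. Ccl2 was at 96.9 ± 1.29 CPM in shARF and 95.3 ± 6.19 CPM in shNT (edgeR, adjusted p = 0.719). Cxcl1 was at 46.6 ± 2.05 CPM in shARF and 48.7 ± 1.02 CPM in shNT (edgeR, adjusted p = 0.265), and Il6 at 1.06 ± 0.108 CPM in shARF and 1.32 ± 0.153 CPM in shNT (SD, n = 3 each; edgeR, adjusted p = 0.137). Birc3 (-0.55; edgeR, adjusted p = 0.00303), Bcl3 (-0.48; edgeR, adjusted p = 4.02e-04) and Nfkbiz (-0.34; edgeR, adjusted p = 0.0156) fell. Tnfaip3 (-0.47; edgeR, adjusted p = 0.0652) and Lcn2 (-0.69; edgeR, adjusted p = 0.079) did not pass, although all their shARF values lay below the shNT values. Lcn2 was low, at 0.195 ± 0.0324 CPM in shARF and 0.317 ± 0.03 CPM in shNT. Saa3 and Ccl20 were the other 2 genes higher by at least 2-fold, at 2.44 to 2.92 CPM and 1.00 to 1.3 CPM in shARF, against 0 to 0.0434 CPM and 0 to 0.185 CPM in shNT.

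**Figure D4:**
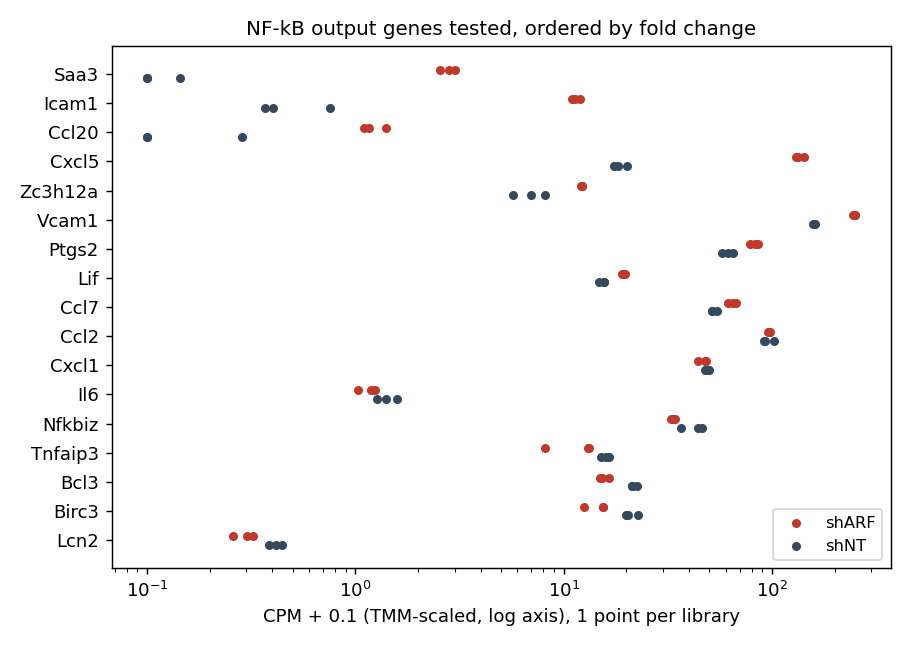
CPM plus 0.1 (horizontal log axis, TMM-scaled) of 17 NF-kB output genes in 3 shARF and 3 shNT libraries, 1 point per library, ordered from the largest rise at the top to the largest fall at the bottom. Cxcl5 and Icam1 stand far apart between the groups, whereas the points of Ccl2 and Cxcl1 overlap.

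Genes that process IL-33 or turn over ST2 changed modestly. Of 9 listed, 8 were tested, 5 were higher and 3 lower, none of them by 2-fold, where 28.8% of all genes tested were higher and 27.7% lower. Their median was 0.17 on the log2 scale. Capn1, a calpain protease, fell, with 66.4, 66.3 and 68.0 CPM in shARF libraries and 102, 101 and 107 CPM in shNT libraries (-0.62, SE 0.03; edgeR, adjusted p = 8.99e-06). Gsk3b, a kinase tied to ST2 turnover, rose (0.54, SE 0.03; edgeR, adjusted p = 1.68e-05). Casp1, which had 6 counts over all libraries, was too low to be tested.

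The type 2 cytokines that IL-33 is known to elicit from immune cells were absent or nearly so. Il4 and Il13 had no count in any library, and Il5 had no count in shARF and at most 0.0972 CPM in shNT. Of 19 genes of the type 2 axis, 10 were tested, 3 were higher and 3 lower, a share called near the 56.4% over all genes. Their median was -0.12 on the log2 scale. Postn, a matrix protein known as a target of IL-13 in stromal cells, fell, with 491, 507 and 535 CPM in shARF libraries and 1180, 1170 and 1200 CPM in shNT libraries (-1.21, SE 0.03; edgeR, adjusted p = 5.40e-07). Il4ra fell (-0.38, SE 0.03; edgeR, adjusted p = 9.02e-05) and Il13ra1, its partner in the receptor for IL-13, rose (0.38, SE 0.04; edgeR, adjusted p = 2.68e-04).

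AP-1 factors are known to drive Il1rl1 in growth-stimulated fibroblasts. Of 7 subunit genes, all tested, 3 were higher and 2 lower, beside 28.8% higher and 27.7% lower over all genes. Their median was -0.03 on the log2 scale. Fosl1 rose, with 60, 55.3 and 53.7 CPM in shARF libraries and 25.2, 25.7 and 27.0 CPM in shNT libraries (1.12, SE 0.06; edgeR, adjusted p = 6.15e-06), and so did Jun (0.42; edgeR, adjusted p = 9.27e-05) and Jund (0.27; edgeR, adjusted p = 0.00551). Fos and Fosb, named after their values were seen, fell (-0.74 and -1.09; edgeR, adjusted p = 0.00567 and 0.0128). Fosl2 and Junb, also named after their values were seen, did not pass (edgeR, adjusted p = 0.342 and 0.118). Fosl2 was at 405 ± 6.4 CPM in shARF and 412 ± 6.31 CPM in shNT, and Junb at 115 ± 2.12 CPM in shARF and 124 ± 9.36 CPM in shNT (SD, n = 3 each).

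The genes whose pattern over the 6 libraries was most like that of Il33 were Rtl3, Slc7a3, Ildr2, Plxna4 and Anxa8. Likeness was the root mean square distance between log2 CPM centred on each gene's mean, over 10385 genes whose mean reached 5 CPM, and it was 0.131 for Rtl3 and 0.181 for Anxa8. Rtl3, a retrotransposon-derived gene, was at 237 ± 7.9 CPM in shARF and 8.75 ± 0.758 CPM in shNT, and Plxna4, a semaphorin co-receptor, at 77.4 ± 3.22 CPM in shARF and 2.62 ± 0.243 CPM in shNT (SD, n = 3 each). Nearest to Il1rl1 were Ksr1, Rpia, Tnfrsf11b, Pde5a and Rasl11a, at distances of 0.0386 to 0.0637. Ksr1, a scaffold of the ERK cascade, was at 19.6 ± 0.82 CPM in shARF and 55.9 ± 1.29 CPM in shNT, and Tnfrsf11b, the RANKL decoy osteoprotegerin, at 10.2 ± 0.383 CPM in shARF and 28.4 ± 0.498 CPM in shNT (SD, n = 3 each). These genes were picked for their pattern, so their values describe it and test nothing.

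All 10 fibroblast markers had counts in both groups, but they differed in direction. The 10 fibroblast markers summed to 24300 to 24500 CPM in shARF and 21000 to 22600 CPM in shNT, and 5 were higher, 2 lower and 3 not called, where 56.4% of all genes tested were called. The 5 higher were Col1a1, Col1a2, Col3a1, Thy1 and Vim, and Col1a1, a chain of type I collagen, was at 9320 to 9410 CPM in shARF and 6850 to 7480 CPM in shNT. The 2 lower were Pdgfra and Dcn. Pdgfra, a receptor that marks fibroblasts, was at 88.8 to 93.0 CPM in shARF and 497 to 508 CPM in shNT, and Dcn at 43.1 to 49.5 CPM in shARF and 193 to 203 CPM in shNT. Lum, not called, was low in both groups, at 1.32 to 1.43 CPM in shARF and 1.39 to 1.99 CPM in shNT. Markers of stroma around vessels, where IL-33 is made in tissues, summed to 287 to 329 CPM in shARF and 314 to 336 CPM in shNT, with 3 of 7 higher and 2 lower, also beside 56.4% called over all genes. Among them Cd34 (-0.43; edgeR, adjusted p = 1.25e-05) and Pdpn (-0.59; edgeR, adjusted p = 2.37e-05) fell and Ly6c1 rose (0.71; edgeR, adjusted p = 2.38e-05). Ly6a also rose (0.665; edgeR, adjusted p = 0.0475), with groups that overlapped. Dpp4 rose from a low level, at 0.375 ± 0.123 CPM in shARF and 0.0324 ± 0.0561 CPM in shNT (edgeR, adjusted p = 0.0121).

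In the list of mast cell and group 2 lymphoid markers, Mcpt4, Tpsb2 and Fcer1a had no count. The list summed to 30.4 to 33.7 CPM in shARF and 16.5 to 17 CPM in shNT, nearly all of it from Gata3 (17.9 to 20.5 CPM in shARF and 7.07 to 7.21 CPM in shNT) and Rora, which are not confined to those cells. The pan-leukocyte gene Ptprc had no count in shARF and at most 0.0729 CPM in shNT, and Adgre1, Itgam, Cd3e and Cd4 had none at all, in a list that summed to 5.17 to 6.27 CPM in shARF and 11.8 to 13.5 CPM in shNT. Of the 9 genes of that list, 3 were tested, and all 3 were called lower, where 27.7% of all genes tested were. Csf1r was at 0.179 to 0.446 CPM in shARF and 4.25 to 4.78 CPM in shNT. Cd68 was at 1.21 to 1.54 CPM in shARF and 2.30 to 2.69 CPM in shNT, and Cd14 at 3.67 to 4.61 CPM in shARF and 5.06 to 6.63 CPM in shNT. The endothelial genes Cdh5 and Tie1 had no count, in a list that summed to 2.99 to 3.8 CPM in shARF and 3.12 to 3.43 CPM in shNT. In that list Kdr was higher, at 2.81 to 3.53 CPM in shARF and 0.246 to 0.316 CPM in shNT, while Tek was lower, at 0 to 0.112 CPM in shARF and 2.05 to 2.31 CPM in shNT, as was Vwf, at 0.179 to 0.223 CPM in shARF and 0.437 to 0.869 CPM in shNT. The part of these genes in the differences of Il33 and Il1rl1 was not tested.

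Markers of mesothelium, the lining of body cavities, differed between the groups in both directions. Of 5 mesothelial markers, 4 were higher and 1 lower, beside 28.8% higher and 27.7% lower over all genes. The 4 higher (Upk3b, Wt1, Lrrn4 and Upk1b) were at 8.41 to 12.3 CPM in shARF and at 0 to 0.243 CPM in shNT. Msln was lower, at 52.9 to 55.4 CPM in shARF and 82.4 to 85.6 CPM in shNT. The list summed to 92.7 to 95.4 CPM in shARF and 82.4 to 85.7 CPM in shNT. Epithelial markers summed to 34.4 to 35.9 CPM in shARF and 36.8 to 39.6 CPM in shNT, with 3 of 6 tested higher and 1 lower (28.8% and 27.7% over all genes), and Krt5 had 2 counts over all libraries. The part of these genes in the difference of Il33 was not tested.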

How the data were processed

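RNA was measured in 3 shARF and 3 shNT libraries of p53-deleted MEFs. Per the labels' protocols, total RNA was made into stranded libraries after removal of ribosomal RNA. The authors deposited 1 table of raw whole-number counts per gene, 54752 rows with versioned Ensembl IDs. Build GRCm38 is named in the submitters' processing notes, which also list HISAT2 2.1.0, StringTie 1.3.2, DESeq2 1.34.0, Picard 2.13.2, Trim Galore 0.4.1 and SAMtools 0.1.19, with no role or order given. Not given in the sources used here are the counting tool, its strand setting and how duplicates were handled. Without the strand setting, reads of antisense genes cannot be told apart, and if duplicates were removed, abundant genes are understated. Another 6 columns match no sample and were not used. In the shARF columns the index number after the replicate differs from that in the titles, so columns were matched on group and replicate number.

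Symbols, coordinates and exon lengths came from GENCODE M21 (GRCm38), which matched 54723 rows when the version was ignored. The symbols of 4 IL-36 genes were found through RefSeq synonyms after the files were read. Promoter windows are RefSeq sequences of GRCm38.p6, and all 3 genes matched.

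Counts were tested in R 4.3.3 by edgeR 4.0.16 (quasi-likelihood F test) with TMM scaling, filterByExpr (minimum count 10, minimum total 15), group as the sole term, two-sided, and Benjamini-Hochberg adjustment over 17128 genes at a threshold of 0.05. "Higher", "lower" and "called" for genes in lists mean past that threshold. Fold changes use a prior count of 0.125. The SE of a log2 fold change was derived from the test, as its absolute value divided by the square root of the F statistic. For Il33, Il1rl1 and Il1rap that SE is descriptive only. CPM were computed for all rows. A count of 0 was taken to allow 3 counts per library. That limit covers counting error only, and the library totals set it. The steps were tested on simulated counts in which far fewer genes were changed than were called here. That simulation therefore does not cover how the scaling behaves when many genes differ.

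The members and gene lists were chosen with earlier results of these data known. Named genes were Il33, Il1rl1, Il1rap and Cdkn2a, all IL-1 family genes, the 3 members of each other pathway list with the smallest p, the 3 nearest tested protein-coding genes on each side and the 5 genes nearest in pattern. A gene named by that rule is not reported here. Genes outside that rule are the cell type markers, those said to be so where they appear, and Xist, Casp1, Il4, Il5 and Il13, which were also chosen after their values were seen. Alternatives were DESeq2 1.42.0, limma-voom (limma 3.58.1), other scalings and filters, a block on replicate number, longest transcripts as lengths, and each library left out in turn.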

Additional observations from a re-analysis of the deposited data

How the results depend on the processing

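Over 14 alternatives, Il33, Il1rl1 and Il1rap kept their direction. With library sizes alone as the scaling, Il1rl1 stood at -1.60 and Il1rap at -0.71 on the log2 scale, which moved them by more than the spread of replicates. Leaving out 1 library gave 4.82 to 5.00 for Il33, -1.57 to -1.46 for Il1rl1 and -0.64 to -0.59 for Il1rap. With longest transcripts as lengths, levels per kb were 30.7 CPM in shARF and 1.03 CPM in shNT for Il33, 28.4 and 80.8 CPM for Il1rl1, and 7.21 and 11.1 CPM for Il1rap, because those lengths are shorter. The count of genes called, 9667, became 8913 with the replicate block. Replicate numbers did not pair the libraries: deviations of same-numbered libraries correlated at -0.0904, -0.0211 and 0.00647, so the block is given here only. Leaving out 1 library gave 8783 to 9178 genes called. The counts called in each of the 7 pathway lists stayed within 1.5 times under the 14 alternatives, and those of the 7 marker lists were not recomputed.

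Of 49 other named genes, 42 kept their direction and their side of the threshold under all alternatives that gave a value. Il18 and Il18rap, not called, changed sign. Il18 stood at -0.0044 with library sizes alone and ranged from -0.015 to 0.15 when 1 library was left out. Il18rap stood at -0.00064 with upper quartile scaling and -0.061 with library sizes alone, and ranged from -0.063 to 0.11 (-0.0071 without shNT replicate 2). Il18bp missed the threshold in 6 alternatives (adjusted p = 0.0504 with no filter and 0.0884 with DESeq2, within a range of 0.018 to 0.0989). 9930021J03Rik was called lower with library sizes alone, and Mrps9 under 3 alternatives. The cause was not tested. Genes under about 1 CPM rest on few counts, and depth limits them most.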

Other observations

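Several growth factor receptors stand in the marker lists, and they are named here after their values were seen. Kdr, a VEGF receptor, rose to 3.13 ± 0.370 CPM in shARF, against 0.282 ± 0.0347 CPM in shNT (SD, n = 3 each; edgeR, adjusted p = 6.36e-06). Tek, the angiopoietin receptor, fell to 0.0670 ± 0.0591 CPM in shARF, against 2.16 ± 0.134 CPM in shNT (SD, n = 3 each; edgeR, adjusted p = 1.33e-04). Csf1r, the receptor for macrophage colony-stimulating factor, fell to 0.338 ± 0.141 CPM in shARF, against 4.49 ± 0.271 CPM in shNT (SD, n = 3 each; edgeR, adjusted p = 2.77e-05). Pdgfra fell by 2.46 on the log2 scale (SE 0.03; edgeR, adjusted p = 8.76e-08), while its relative Pdgfrb, at 365 ± 12.9 CPM in shARF and 348 ± 3.83 CPM in shNT (SD, n = 3 each), did not pass (edgeR, adjusted p = 0.0853). Kit, at most 0.134 CPM in shARF and with no count in shNT, was too low to be tested. Keratins went both ways: Krt18 fell to 0.150 ± 0.130 CPM in shARF, against 12.7 ± 1.05 CPM in shNT, while Krt14, with no count in shNT, was at 1.91 ± 0.112 CPM in shARF (SD, n = 3 each).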
